A study of Mus musculus with 4 samples.

Results

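The insulin-like growth factor (IGF) genes described here are 9 of the 32285 genes in the deposited count matrix, each with 1 row, taken by gene symbol. They are the ligand genes Igf1 and Igf2, the receptor gene Igf1r and 6 genes of secreted IGF-binding proteins, Igfbp2, Igfbp3, Igfbp4, Igfbp5, Igfbp6 and Igfbp7. Their counts were followed across the deposited cell classes of lung co-cultures and between control cultures and cultures in which YAP and TAZ were knocked down in the fibroblasts.

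IGF-I and IGF-II are secreted growth factors that act through the IGF-1 receptor, a receptor tyrosine kinase that signals through insulin receptor substrates to PI3K, AKT and the FoxO transcription factors. Most IGF outside cells is held by IGF-binding proteins, and proteases such as pappalysin 1 release it by cutting them. In lung, IGF1 is made largely by mesenchymal cells, and the receptor is found on both epithelium and mesenchyme. YAP and TAZ, encoded by Yap1 and Wwtr1, are transcriptional co-activators of the Hippo pathway that act mostly through TEAD factors.

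The cultures were alveolospheres, which are spheres grown from alveolar type 2 (AT2) cells together with supporting lung fibroblasts. Mouse AT2 cells that took up LysoTracker were mixed with fibroblasts bearing PDGFRα and kept in MTEC/Plus medium. The control group was labelled wildtype in genotype, and the knockdown group held wildtype AT2 cells with a knockdown of YAP and TAZ specific to the PDGFRα fibroblasts. All 4 cultures, controls included, received 3 µg/ml doxycycline in DMSO from day 7 until they were collected on day 14, and there were 2 libraries per group. Biological replicates is the labels' term, without separate animals or cultures being named, so the p-values measure only how these libraries vary, and that variation may be technical. All carry the same batch label, and the labels do not describe how the knockdown construct is built and driven.

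The matrix holds 45936 cells, with 44284602 to 71523447 unique molecular identifiers (UMIs) per library and a median of 3875.5 to 5946 UMIs per cell, higher in both knockdown libraries than in both controls. Fibroblast classes and the related mesenchymal classes made up 5123 to 12041 cells per library, and epithelial classes 1274 to 2589. In the fibroblasts, Yap1 had a level of 63.2 and 64.8 CPM (UMIs of the gene scaled to a fixed total of all UMIs of those cells) in control libraries, and of 39.4 and 36.6 CPM after knockdown. Its log2 fold change was -0.71 ± 0.11 (SE, adjusted p = 0.00864, and 0.0559 without knockdown 2). Wwtr1 was at 247, 231, 187 and 173 CPM in the same order, a difference that did not pass (-0.36 ± 0.13, adjusted p = 0.115). In epithelium neither gene passed (-0.17 ± 0.16, adjusted p = 0.697 for Yap1 and -0.37 ± 0.19, adjusted p = 0.486 for Wwtr1). By edgeR's quasi-likelihood test the effect differed between fibroblasts and epithelium for Yap1 (-0.57 ± 0.13, adjusted p = 0.0316). No difference was called for Wwtr1 (-0.03 ± 0.11, adjusted p = 0.927), so its values do not show a fall confined to fibroblasts. Markers of endothelial and immune cells were near 0, with summed levels of 5.07 to 14.3 CPM in fibroblasts. Between libraries, 1073 cell barcodes were shared, carried by 4.70% of the cells. The makeup of the fibroblasts differed between groups, with 1362 and 971 Wnt4+ and 931 and 404 Tgfbi+ fibroblasts in the knockdowns against 38 cells or fewer of either class in each control. The class labelled as smooth muscle (SMC) had 724 and 753 cells in the controls and 48 and 5 in the knockdowns.

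All 9 genes are autosomal (GRCm38, GENCODE M21). Igfbp2 (chromosome 1, 72824503 to 72852474, plus strand) and Igfbp5 (chromosome 1, 72857932 to 72874884, minus strand) stand tail to tail, 5457 bases apart. Igf1r (chromosome 7, 67952827 to 68233668, plus strand) spans 281 kb, and Igf2 (142650766 to 142666816, minus strand) is on the same chromosome. Igf1 is at 87858265 to 87937042 of chromosome 10 (plus strand), Igfbp3 at 7206086 to 7213923 (minus strand) and Igfbp4 at 99041244 to 99054392 (plus strand) of chromosome 11, Igfbp6 at 102144362 to 102149511 of chromosome 15 (plus strand) and Igfbp7 at 77349240 to 77408041 of chromosome 5 (minus strand). Igf1, Igf2 and Igfbp7 overlap genes on the opposite strand. Whether counting used strand is not stated, so reads of such partners cannot be told apart, but the partners Igf1os, Igf2os and Gm34648 had at most 68 UMIs per library in fibroblasts. Igfbp7 shares a further 85 bases with Polr2b, which was at 22.2 to 30.6 CPM.

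The 250 bases before the annotated starts of the 4 members called in fibroblasts are shown because TEAD factors, the DNA-binding partners of YAP and TAZ, recognise a short motif that can be looked for in them (RefSeq, GRCm38.p6, each 5′ to 3′ on the gene's strand). Capitals mark GGAATG or its reverse complement CATTCC, searched on both strands. For Igf2, which has 4 annotated starts in the table, the window with 2 matches is printed.
Igfbp7 (chr5:77408046-77408295, minus): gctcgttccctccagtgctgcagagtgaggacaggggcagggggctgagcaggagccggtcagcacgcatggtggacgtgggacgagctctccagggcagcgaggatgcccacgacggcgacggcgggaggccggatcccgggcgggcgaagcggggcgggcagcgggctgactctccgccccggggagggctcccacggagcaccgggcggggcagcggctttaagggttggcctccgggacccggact
Igfbp5 (chr1:72874866-72875115, minus): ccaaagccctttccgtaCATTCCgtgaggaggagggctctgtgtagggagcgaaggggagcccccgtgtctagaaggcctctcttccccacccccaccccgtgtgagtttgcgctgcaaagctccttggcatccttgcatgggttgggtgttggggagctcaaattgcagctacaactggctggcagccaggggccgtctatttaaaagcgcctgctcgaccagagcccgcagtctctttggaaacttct
Igf1r (chr7:67952007-67952256, plus): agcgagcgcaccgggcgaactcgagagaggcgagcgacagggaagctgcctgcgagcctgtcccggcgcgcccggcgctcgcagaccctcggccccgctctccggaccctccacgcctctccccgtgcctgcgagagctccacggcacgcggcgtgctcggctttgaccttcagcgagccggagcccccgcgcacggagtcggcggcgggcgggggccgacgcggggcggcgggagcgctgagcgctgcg
Igf2 (chr7:142661272-142661521, minus): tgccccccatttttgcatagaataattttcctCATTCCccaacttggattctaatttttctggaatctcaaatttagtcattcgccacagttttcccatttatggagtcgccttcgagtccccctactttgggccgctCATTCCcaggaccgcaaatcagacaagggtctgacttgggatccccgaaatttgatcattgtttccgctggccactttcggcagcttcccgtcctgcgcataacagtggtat
The TEAD motif was in 4 of the 13 windows of the 9 members, against 12.6% of the 32851 windows of all genes. Those 4 were 3 of the Igf2 windows and that of Igfbp5, 233 bases before its start. The windows of Igfbp7 and Igf1r hold no match. The AP-1 motif TGANTCA, searched the same way and present in 6.75% of all windows, was in 2 of the 13, 39 bases before the second start of Igfbp2 and 37 before that of Igf1. A match is a run of letters and says nothing of binding, and these windows leave out distal sites.

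The first comparison asked which IGF genes differed between knockdown and control fibroblasts, with counts summed over all fibroblast and related mesenchymal cells of a library. The binding protein genes Igfbp7 and Igfbp5 rose, and the receptor gene Igf1r and the ligand gene Igf2 fell. Igf1, Igfbp2, Igfbp3, Igfbp4 and Igfbp6 did not pass the test (edgeR's quasi-likelihood test, adjusted p below 0.05 over all genes). Of 17481 genes tested, 10.6% were called, 4.42% rising and 6.22% falling, so the 2 rises and 2 falls among 9 members stand beside a background in which calls were common. The median log2 fold change was -0.05 over the members and 0.01 over all genes. In 5 of the 9 members the 2 knockdown libraries did not overlap the 2 controls, and in 57.4% of all genes tested they did not either.

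**Figure D1:**
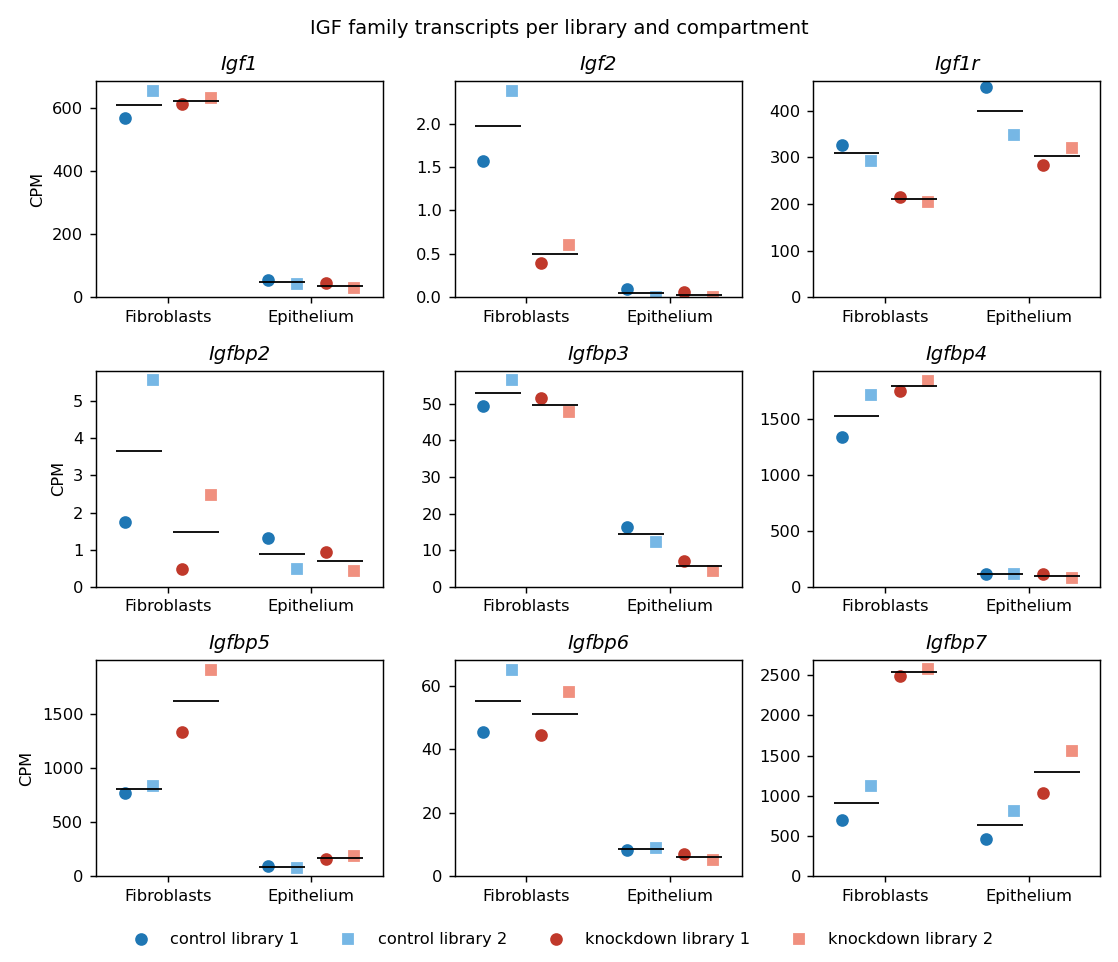
Level of each member in each library, in CPM of the fibroblasts and of the epithelium (linear axes from 0, points for the 2 control and 2 knockdown libraries, bars for group means). Igfbp7 and Igfbp5 sit higher and Igf1r lower in both knockdown fibroblast libraries, while Igf1 is at 569 to 656 CPM in fibroblasts of all 4 libraries.

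Of the ligands, Igf1, which encodes the main IGF of postnatal tissue, was at 569 and 656 CPM in control fibroblasts and 614 and 634 CPM in knockdown fibroblasts. The groups overlapped, with means of 612 ± 61.3 and 624 ± 14.0 CPM (SD, n = 2 each) and a log2 fold change of 0.07 ± 0.15 (SE, adjusted p = 0.80). Igf2, an imprinted gene known for growth of the embryo, was near the limit of detection at 1.57 and 2.37 CPM in controls and 0.393 and 0.596 CPM in knockdowns. These levels rest on 85 and 130 UMIs in the controls and 16 and 20 in the knockdowns, carried by 75, 103, 12 and 20 fibroblasts, with no more than 4 UMIs in any of them. The fall of Igf2 was -1.97 ± 0.33 on the log2 scale (SE, adjusted p = 0.0114). It did not pass when every class with at least 50 cells in every library had the same weight (-0.70, adjusted p = 0.0666). That setting, called equal class weights below, leaves out the SMC, Wnt4+ and Tgfbi+ classes. It also tests log2(CPM + 1) by limma, where the main test fits counts by edgeR. At a level this low the added 1 shrinks a change, so the -0.70 does not measure the class weights alone.

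The receptor gene Igf1r was at 326 and 292 CPM in control fibroblasts and 215 and 205 CPM in knockdown fibroblasts. Both knockdown libraries lay below both controls, with means of 309 ± 24.3 and 210.0 ± 6.84 CPM (SD, n = 2). The log2 fold change was -0.51 ± 0.13 (SE, adjusted p = 0.0476), close to the threshold, and the call was lost in 6 of 17 alternatives. Among these, leaving out control 1, knockdown 1 or knockdown 2 gave adjusted p = 0.0985, 0.126 and 0.286. Igf1r is a long gene, and longer genes were lower in knockdown fibroblasts in general (Spearman's rho of span and log2 fold change -0.457 across 8794 genes, which are not independent). The same rho was 0.432 for control 1 less control 2 and 0.509 for knockdown 1 less knockdown 2. With the trend on length removed, the log2 fold change of Igf1r was -0.25 (adjusted p = 0.168).

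Among the binding proteins, Igfbp7, a secreted protein of low affinity for IGFs that is also found in basement membrane, showed the highest rise of the members. It was at 696 and 1126 CPM in control fibroblasts and 2488 and 2577 CPM in knockdown fibroblasts. The controls differed from each other more than the knockdowns did, yet every knockdown library lay above both. The group means were 911 ± 304 and 2532 ± 63.4 CPM (SD, n = 2), and the log2 fold change was 1.51 ± 0.25 (SE, adjusted p = 0.0108). The call was kept in all 17 alternatives, with log2 fold changes of 1.19 to 1.93. Igfbp5, which binds IGFs and extracellular matrix and is made by many mesenchymal cells, was at 770 and 836 CPM in controls and 1333 and 1905 CPM in knockdowns. Its groups did not overlap either, with means of 803 ± 46.8 and 1619 ± 405 CPM (SD, n = 2) and a log2 fold change of 1.05 ± 0.20 (SE, adjusted p = 0.0165). This call was lost without knockdown 2 (0.81, adjusted p = 0.0734) and with cells of at most 20% mitochondrial UMIs (0.59, adjusted p = 0.162).

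Igfbp4, a secreted binding protein that pappalysin 1 cuts, was at 1344 and 1715 CPM in controls and 1757 and 1848 CPM in knockdowns, higher in both knockdown libraries but not past the test (0.28 ± 0.19, adjusted p = 0.367). Igfbp3, the main carrier of IGFs in blood, was at 49.4, 56.4, 51.5 and 47.7 CPM (adjusted p = 0.825). Igfbp6, which prefers IGF-II, was at 45.5, 64.9, 44.5 and 57.8 CPM (adjusted p = 0.83). In both, the groups overlapped. Igfbp2 was scarce, at 1.76 and 5.56 CPM in controls and 0.466 and 2.47 CPM in knockdowns, and its groups overlapped (-1.34 ± 0.69, adjusted p = 0.247). Few cells carried it. In knockdown 2, 1 cell held 56 of the 83 Igfbp2 UMIs, and in control 2, 14 cells held 51.5% of 305. Without control 1 the call of Igfbp2 passed at adjusted p = 1.04e-13 and its log2 fold change ran from -2.90 to -0.25 over the alternatives.

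Within the controls, the classes had different IGF profiles. The deposited classes were clustered on these same genes, so levels by class are given as a description with no test. Igf1 was highest in the class labelled EMT-like (983 ± 126 CPM, SD, n = 2), followed by SMC at 926 ± 187, Myo1f+ fibroblasts at 795 ± 115, the class labelled Fibroblasts at 651 ± 80.1 and Inflammatory Fibroblasts-2 at 528 ± 45.3. The first 3 overlapped between libraries, and the next 2 did not overlap their neighbours. The Unknown Mesenchymal class was lowest among the mesenchymal classes at 225 ± 3.01 CPM, above every epithelial class without overlap. Igfbp4 had a like order at its ends, from 2259 ± 450 CPM in EMT-like cells to 769 ± 173 CPM in Myofib-like cells, with overlap between neighbours down to Inflammatory Fibroblasts-1. The class labelled SMC held only part of a smooth muscle profile, with Myh11 at 97.0 and 96.4 CPM and Acta2 at 548 and 1071 CPM in the controls.

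Igfbp5 was highest in Myo1f+ fibroblasts (1523 ± 176 CPM), then in Fibroblasts (1211 ± 44.1) and Myofib-like cells (1099 ± 25.5), 3 classes that did not overlap one another or the next. It was lowest of the mesenchymal classes in Inflammatory Fibroblasts-1, at 303 ± 47.3 CPM. Igfbp3 and Igfbp6 were highest elsewhere. Igfbp3 was at 123 ± 7.5 CPM in SMC and 90.6 ± 5.2 CPM in Inflammatory Fibroblasts-2, and in the knockdowns it reached 108 ± 1.5 CPM in Tgfbi+ fibroblasts. Igfbp6 was highest in Inflammatory Fibroblasts-2 (118 ± 32.7 CPM). Igfbp7 was spread widely, from 1253 ± 413 CPM in Myofib-like cells to 290.1 ± 104 CPM in the main AT2 cluster (deposited cluster 9). Each class overlapped the next, and control 2 was 1.51 to 2.00 times control 1 in every class.

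Igf1r was the member whose highest level was in epithelium. The class labelled transitional epithelial cells, a name used for cells between the AT2 and AT1 states, had 659 ± 71.6 CPM in the controls. This level was above the other 12 classes ranked, without overlap. Deposited cluster 32 of the AT2 class, too small to be ranked, had 694 and 533 CPM and overlapped it. Cluster 14 of the deposited AT2 class, where AT1 markers summed to 2675 and 4127 CPM in the controls, came next among the ranked classes at 339 ± 16.8 CPM. Most mesenchymal classes were close to it, at 293 to 337 CPM. Myofib-like cells (190.4 ± 12.2 CPM), cycling AT2 cells (178.0 ± 41.4 CPM) and AT2 cluster 9 (113 ± 0.51 CPM) were lowest. The transitional class also ranked first in the knockdowns, at 556 ± 41.4 CPM. Its AT1 markers summed to 563 and 711 CPM in the controls, below those of AT2 cluster 9 at 1388 and 2011 CPM. Its 5 markers of transitional epithelium summed to 3485 and 5127 CPM there.

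**Figure D2:**
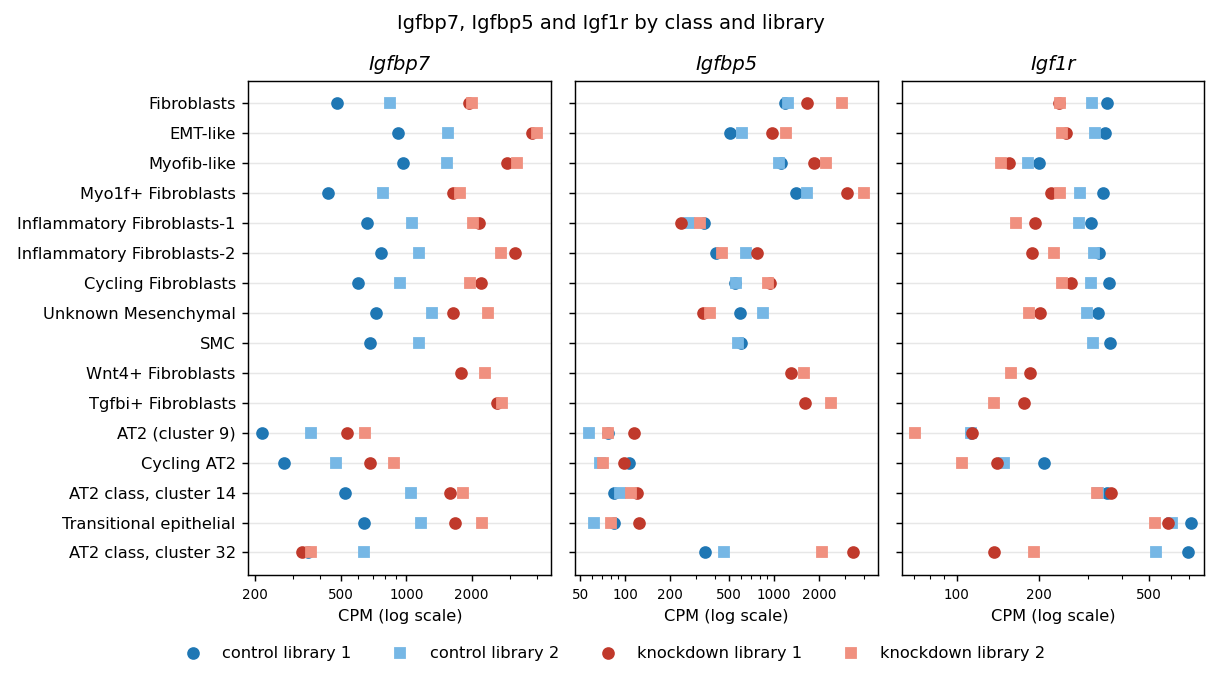
CPM of Igfbp7, Igfbp5 and Igf1r by class and library on a log axis (classes with at least 50 cells in that library, and cluster 32; points are libraries, coloured by group). Knockdown points of Igfbp7 lie above control points in every class tested, and Igf1r in the controls is highest in the transitional class and, overlapping it, in cluster 32.

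The second comparison was made within each of 12 classes that had at least 50 cells in every library, 8 mesenchymal and 4 epithelial. Of 89 tests of a member in a class, 22 were called, 16 rising and 6 falling. By class, 4 of 8 members were called in Fibroblasts (8.23% of all genes tested there), 3 of 7 in Myofib-like cells (7.33%), 2 of 9 in EMT-like cells (6.24%), 3 of 8 in Inflammatory Fibroblasts-1 (2.53%), 1 of 8 in Inflammatory Fibroblasts-2 (2.56%), 2 of 7 in Myo1f+ fibroblasts (2.48%), 2 of 8 in cycling fibroblasts (2.31%) and 2 of 7 in the Unknown Mesenchymal class (1.31%). In epithelium they were 2 of 6 in cycling AT2 cells (1.34%), 1 of 7 in AT2 cluster 9 (0.922%) and 0 of 7 both in cluster 14 (0.51%) and in transitional cells (0.304%). Igfbp7 rose in all 8 mesenchymal classes and in AT2 cluster 9 and cycling AT2 cells, though in cycling fibroblasts the call was lost without knockdown 1 or knockdown 2. Its libraries did not overlap between groups in any of the 12 classes, with the knockdowns above, as was the case for 0.592% of the 6755 genes tested in all of them (40 genes). Igfbp5 rose in 4 mesenchymal classes and fell in 1.

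In EMT-like cells Igfbp7 was at 916 and 1558 CPM in controls and 3794 and 4023 CPM in knockdowns (1.69 ± 0.25, adjusted p = 0.000675). In the class Fibroblasts it was at 479, 838, 1936 and 2015 CPM in the same order (1.63 ± 0.24, adjusted p = 0.00187). Both knockdown values were far above both controls in each of these classes. The smallest mesenchymal effect was that of the Unknown Mesenchymal class (722 and 1316 against 1649 and 2389 CPM), at 1.07 ± 0.26 (adjusted p = 0.0353), and it was lost without control 1 or knockdown 2. The Wnt4+ and Tgfbi+ fibroblasts, too rare in controls to test, had 1785 and 2304 CPM and 2624 and 2770 CPM in the knockdowns. Those levels are within the range of the other knockdown classes.

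Igfbp5 changed to very different degrees. It rose in Myo1f+ fibroblasts from 1399 and 1647 CPM to 3087 and 4009 CPM (1.24 ± 0.20, adjusted p = 0.000236), and in EMT-like cells from 506 and 608 CPM to 972 and 1200 CPM (0.99 ± 0.19, adjusted p = 0.00471). It also rose in Myofib-like cells (0.95 ± 0.20, adjusted p = 0.00669) and in Fibroblasts (0.94 ± 0.22, adjusted p = 0.0242), both calls being lost without knockdown 2. In Inflammatory Fibroblasts-1 the log2 fold change was -0.06 (adjusted p = 0.91). In the Unknown Mesenchymal class Igfbp5 fell, from 588 and 847 CPM to 331 and 373 CPM (-0.94 ± 0.21, adjusted p = 0.0222), and this call was lost without control 2, knockdown 1 or knockdown 2. The Wnt4+ and Tgfbi+ classes gave 11.2% and 15.4% of the fibroblast Igfbp5 UMIs in knockdown 1 and 10.7% and 10.1% in knockdown 2, against at most 1.09% in a control. Of the UMIs of all genes in fibroblasts, they held 4711327 and 5183854 of 40748500 in knockdown 1. In knockdown 2 they held 4289856 and 2668583 of 33575313, and in control 2 they held 94051 and 148940 of 54816091. What part the sizes of the classes have in these Igfbp5 shares was not tested.

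**Figure D3:**
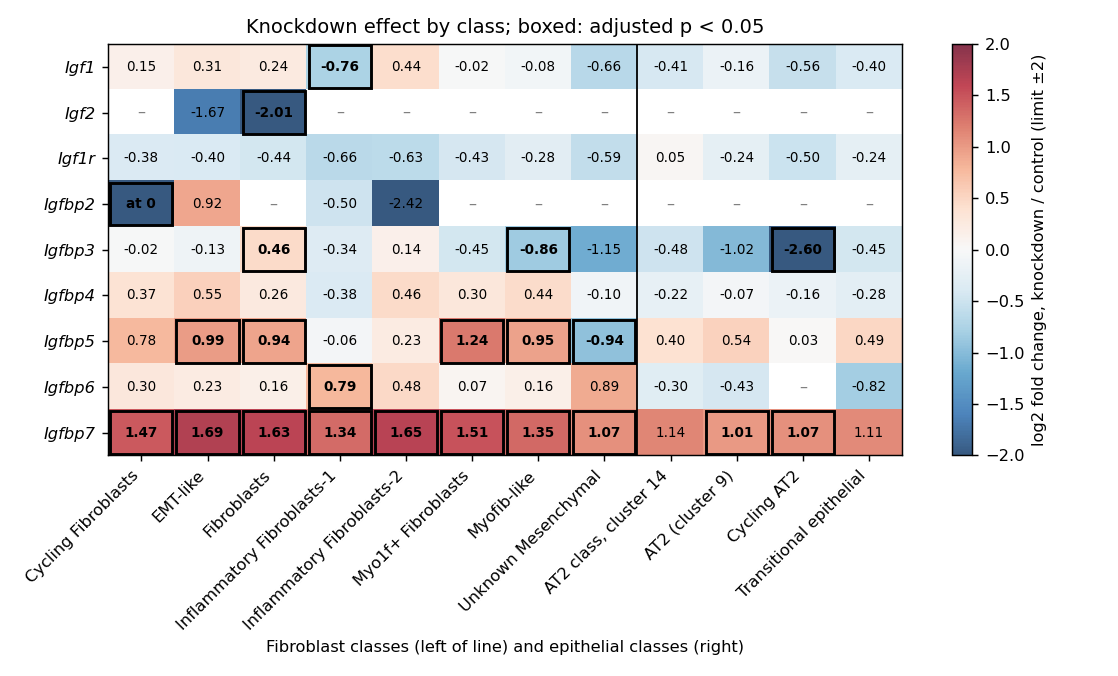
Log2 fold change of knockdown against control for each member (rows) in each of the 12 classes (columns), as colour and number, with boxes at adjusted p below 0.05 by edgeR's quasi-likelihood test. Igfbp7 is positive in all 12 classes, Igfbp5 ranges from -0.94 to 1.24, a dash marks a member filtered out and "at 0" marks Igfbp2 with no UMI in the knockdowns.

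Other members moved in single classes. Igf1 fell in Inflammatory Fibroblasts-1, from 353 and 457 CPM to 226 and 234 CPM (-0.76 ± 0.20, adjusted p = 0.0425), where Igfbp6 rose from 53.8 and 81.8 CPM to 92.8 and 133 CPM (0.79 ± 0.21, adjusted p = 0.0417). Either call was lost when any of 2 or 3 single libraries was left out. Igfbp3 fell in Myofib-like cells, from 52.3 and 59.9 CPM to 30.6 and 28.6 CPM (-0.86 ± 0.17, adjusted p = 0.00371), a call kept in all 6 alternatives. In the class Fibroblasts it was higher instead, at 44.4, 49.3, 60.5 and 64.5 CPM (0.46 ± 0.13, adjusted p = 0.0427), and that call was lost by DESeq2 and in 3 of 4 fits with a library left out. Igf2 fell in the class Fibroblasts, from 36 and 54 UMIs to 8 and 8 (-2.01 ± 0.38, adjusted p = 0.00897). Igfbp2 had 21 and 41 UMIs in control cycling fibroblasts and 0 in the knockdowns, at least 5.95-fold lower against a floor of 3 counts over the knockdown group (adjusted p = 0.0109, lost by DESeq2 and without knockdown 1 or knockdown 2).

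Igf1r was called in 0 of 12 classes by edgeR's quasi-likelihood test (7 at an unadjusted p below 0.05, and 1 called by DESeq2). Its log2 fold change was below 0 in all 8 mesenchymal classes, from -0.66 to -0.28. Igfbp4 was likewise called in 0 of 12 classes, with 2 at an unadjusted p below 0.05 and 1 called by DESeq2. In its 8 mesenchymal classes the values ran from -0.38 to 0.55.

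Whether a member changed to the same degree in all 8 mesenchymal classes was tested directly, with the library as a block. The effect differed between classes for Igf1, Igfbp2, Igfbp3, Igfbp4, Igfbp5 and Igfbp6, that is 6 of 9 members, where 7.96% of 14888 genes were called. Igfbp5 had a range of 2.09 on the log2 scale between the highest and lowest class effect (adjusted p = 7.8e-07), Igfbp3 1.53 (1.29e-06), Igf1 1.17 (2.67e-08), Igfbp6 0.97 (0.0289) and Igfbp4 0.96 (1.38e-06). The range of Igfbp2, 11.25, is fitted to classes at 0 counts and is no measure of size (adjusted p = 0.0226). The test did not pass for Igfbp7, with a range of 0.56 (adjusted p = 0.0675), for Igf1r, with 0.39 (0.127), or for the sparse Igf2 (0.956). Without the library block, Igfbp5 alone of the 9 passed (adjusted p = 0.014). Igfbp7 passed when knockdown 1 (adjusted p = 0.00312) or knockdown 2 (1.45e-10) was left out, so like effects in all classes are not shown for it.

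**Figure D4:**
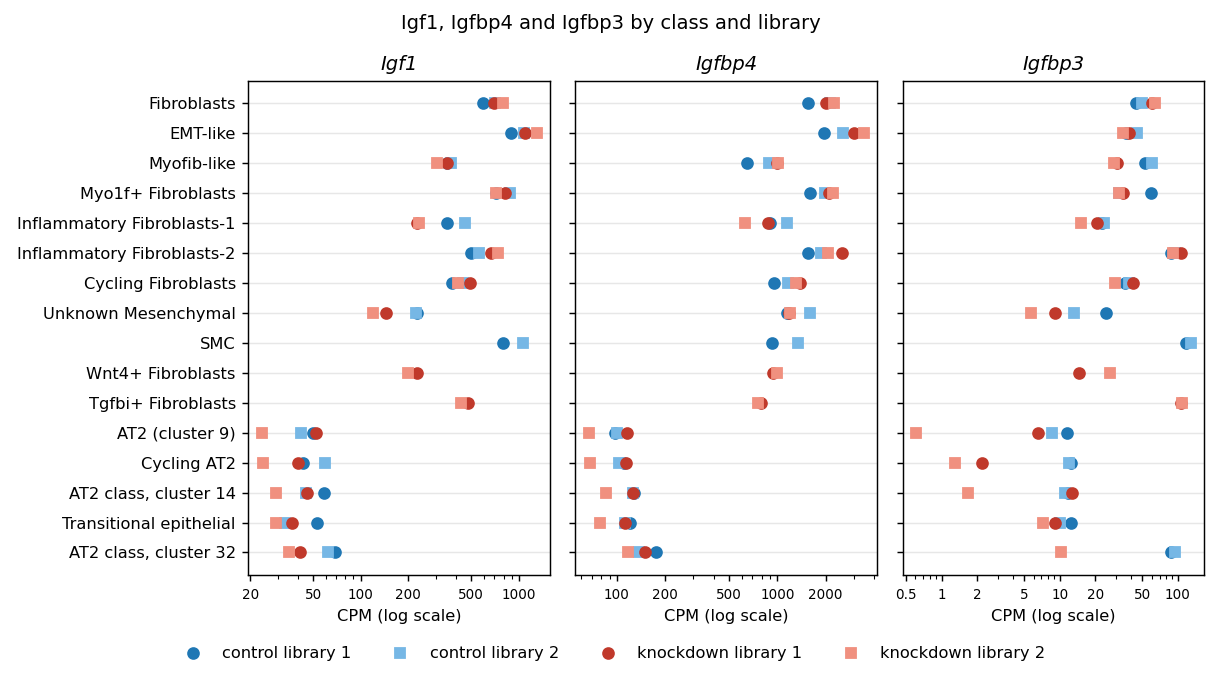
CPM of Igf1, Igfbp4 and Igfbp3 by class and library on a log axis, drawn as for Igfbp7. Igf1 and Igfbp4 are highest in EMT-like cells and lowest in epithelium, and the 1 library at 0 for Igfbp3 (cluster 32, knockdown 1) is not drawn.

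The share of fibroblasts with at least 1 UMI was compared after thinning every cell to 2000 UMIs, which kept 92.6% to 99.1% of the fibroblasts. For Igfbp7 it was 67.3% and 81.2% in controls and 95.4% and 95.8% in knockdowns, a mean difference of 21.3 percentage points (82.0%, 92.1%, 98.6% and 99.6% unthinned). The share of Igfbp5 was 44.6%, 43.3%, 56.5% and 57.6%, a difference of 13.1 points (59.4%, 55.8%, 73.9% and 76.6% unthinned). The share of Igf1r was 44.0%, 42.1%, 32.2% and 31.3%, or -11.3 points (64.9%, 63.6%, 57.0% and 62.2% unthinned). Both knockdowns lay on 1 side of both controls in each case. That was also so for the thinned shares of Igf1, Igf2, Igfbp2 and Igfbp3 (7.55% and 8.22% against 6.76% and 5.53% for Igfbp3). Only Igfbp4 and Igfbp6 overlapped. How many of all genes separate in this way was not computed, so separation is not read as a trait of these members. For Igf1 the shares were 56.3% and 58.9% against 53.9% and 51.2%, while its summed level overlapped between groups, and the unthinned shares overlapped too, so no order is read from them. For every member whose thinned groups did not overlap, the 2-sided exact permutation test gave the smallest p that 2 against 2 libraries can give, 0.33. Exact 95% binomial intervals of these shares were at most 2.77 points wide and cover counting error only.

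In AT2 cluster 9, whose cells had median depths of 3614 to 5454 UMIs against 3764 to 5836 in fibroblasts, the thinned shares were 33.3%, 49.6%, 59.0% and 66.4% for Igfbp7. They were 14.6%, 12.6%, 21.7% and 17.5% for Igfbp5 and 11.5%, 7.58%, 10.3% and 6.73% for Igf1. UMIs of fibroblast marker genes in epithelial cells give a background level to set beside such shares. A sum of 12 fibroblast markers was in cluster 9 at 6.49% to 12% of its level in the fibroblasts of the same library, with single markers from 2.11% to 47.2%. Igf1 (3.76% to 8.83%), Igfbp4 (3.63% to 7.24%) and Igfbp5 (4.01% to 9.96%) stood below the marker sum in every library and within the range of single markers. Their UMIs in that cluster cannot be told apart from such background, and their source was not tested. Igfbp6 stood at 10.6% to 21.1%, and Igfbp3 at 23.1%, 15.2%, 12.8% and 1.28%, below the sum in knockdown 2 alone. Igfbp7 stood at 21.5% to 32.3% and Igf1r at 34.4% to 53.1%, above the marker sum in every library, with some single markers as high as 47.2%.

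In cluster 14 and in transitional cells these members stood far higher. Igfbp7 was there at 64% to 93% and 68% to 104% of its fibroblast level, and Igf1r at 108% to 170% and 208% to 272%. After the marker share of the fibroblast level was taken away, a calculation added after the values were seen, transitional cells had 548 and 1080 CPM of Igfbp7 in controls and 1446 and 2050 CPM in knockdowns, and cluster 9 had 133, 266, 309 and 478 CPM. The same calculation left Igf1 and Igfbp4 below 0 in all 4 epithelial classes and all libraries, down to -63.4 CPM for Igfbp4 in cluster 9 of control 1. A level cannot be below 0, so the marker share takes away too much for these genes. How well it suits Igfbp7 was not tested, so the Igfbp7 remainders are rough.

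**Figure D5:**
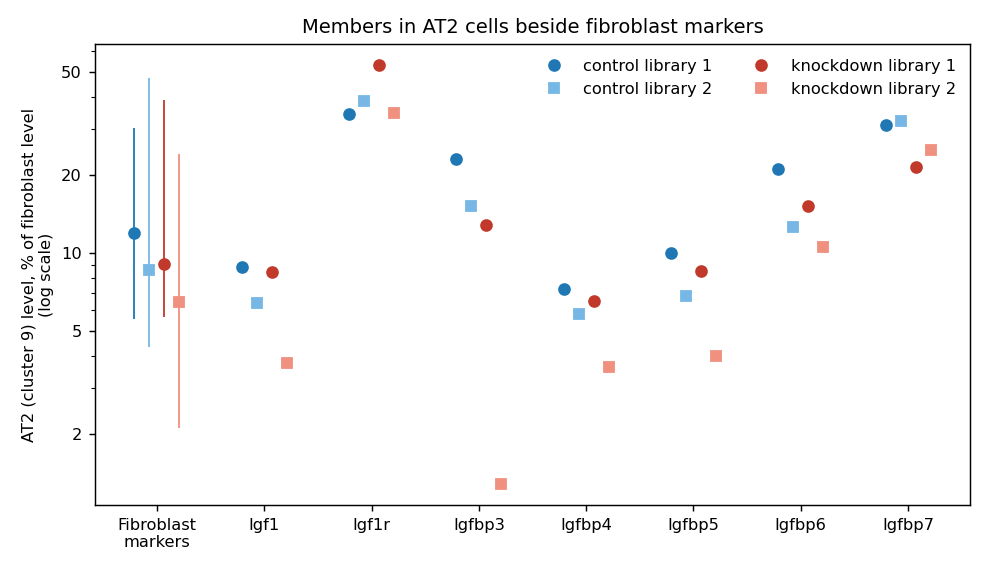
Level in AT2 cluster 9 as a percentage of the level in the fibroblasts of the same library, for members and for the sum of 12 fibroblast markers (lines give the lowest and highest single marker). Igf1, Igfbp4 and Igfbp5 lie below the marker sum, and Igfbp7 and Igf1r lie above it in all 4 libraries.

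The third comparison was of the epithelium, where YAP and TAZ were not targeted. Igfbp5 was called as rising and Igfbp3 as falling, of 7 members measured, and 1.44% of 13952 genes were called, 0.681% rising and 0.76% falling. Igf2 and Igfbp2 were filtered out, with 1, 0, 1 and 0 UMIs of Igf2. The median log2 fold change of the 7 was -0.36, against 0.02 over all genes. In 5 of the 7 the groups did not overlap, as for 42.5% of all genes tested.

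The epithelial call of Igfbp5 rested on a small cluster. Its levels were 100.1 and 77.7 CPM in controls and 161 and 189 CPM in knockdowns (1.01 ± 0.18, adjusted p = 0.00946). Deposited cluster 32, with 82, 25, 21 and 42 cells, gave 19.2%, 14.6%, 30.1% and 57.9% of those UMIs from 1.42% to 5.59% of the epithelial total. In it Igfbp5 was at 345 and 461 CPM in controls and 3402 and 2088 CPM in knockdowns. Without this cluster the effect was 0.41 (adjusted p = 0.505; the call was also lost in 4 other alternatives), and Igfbp5 was called in none of the 4 epithelial classes, with log2 fold changes of 0.03 to 0.54. Cluster 32 carried genes of airway cells unevenly: Scgb3a1, of secretory cells, was at 5105, 1308, 0 and 1720 CPM, Scgb1a1, also of secretory cells, at 196, 28.5, 53.9 and 4205 CPM, and Krt5, of basal cells, at 81.1, 109, 0 and 0 CPM. Its 6 airway secretory markers summed to 6696, 1831, 95.3 and 7797 CPM, so no order between groups is read from them. Cluster 32 also had Igf1r at 694 and 533 CPM in controls and 137 and 191 CPM in knockdowns, and Igfbp7 at 351, 637, 332 and 362 CPM. Whether cluster 32 holds the same cells in both groups was not tested.

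Igfbp3 was low in epithelium, at 16.3 and 12.3 CPM in controls and 7.07 and 4.20 CPM in knockdowns (173, 105, 120 and 39 UMIs). The fall was -1.25 ± 0.26 (adjusted p = 0.0291), and it did not pass without cluster 32 (-0.91, adjusted p = 0.184) or without control 1 (0.146). In cycling AT2 cells Igfbp3 fell from 18 and 16 UMIs to 9 and 2 (-2.60 ± 0.51, adjusted p = 0.0015, lost by DESeq2 and without control 1, control 2 or knockdown 2). The share of fibroblast marker RNA in AT2 cluster 9 was lowest in knockdown 2, where Igfbp3 was lowest too, and its part in these falls was not tested.

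Igfbp7 summed over the epithelium was higher in both knockdown libraries, at 465 and 814 CPM in controls and 1036 and 1555 CPM in knockdowns, but did not pass over the whole epithelium (1.05 ± 0.29, adjusted p = 0.119; it passed in 5 of 17 alternatives). It passed in AT2 cluster 9 (217 and 364 against 535 and 646 CPM, 1.01 ± 0.22, adjusted p = 0.00518) and in cycling AT2 cells (272 and 474 against 679 and 878 CPM, 1.07 ± 0.23, adjusted p = 0.00424). Both calls were lost by DESeq2 (adjusted p = 0.968 and 0.839) and without control 1. In cluster 14 the values were 523, 1047, 1594 and 1829 CPM (adjusted p = 0.0622), and in transitional cells 639, 1174, 1681 and 2234 CPM (adjusted p = 0.192). Igf1r was at 452, 347, 284 and 321 CPM in epithelium and did not pass (-0.36 ± 0.20, adjusted p = 0.517). Igf1 (adjusted p = 0.542), Igfbp4 (0.738) and Igfbp6 (0.516) did not pass either. Igf1 passed without knockdown 1 (-0.79, adjusted p = 0.00953) and when AT2 clusters 19 and 23, left out for their fibroblast markers, were included (-1.06, 0.0376), as did Igfbp6 with those clusters (-0.85, 0.0433).

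Whether a member responded differently in fibroblasts and in epithelium was tested in a model of both sums of each library. A difference was called for 1 of 9 members, Igfbp3, whose effect was higher by 1.19 ± 0.23 on the log2 scale in fibroblasts (adjusted p = 0.0169), against 3.55% of 17188 genes. That call was lost without the library block (adjusted p = 0.151), with cells thinned to 2000 UMIs (0.0808) and without control 1 (0.127). For Igfbp7 the difference was 0.44 ± 0.16 (adjusted p = 0.200), for Igf1r -0.20 ± 0.13 (0.514) and for Igfbp5 -0.02 ± 0.15 (0.976). The difference for Igfbp7 passed with no filter on low counts (adjusted p = 0.00344) and without knockdown 2 (0.000896), so neither an equal nor a larger rise in fibroblasts is shown.

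The genes that control the release of IGFs from binding proteins were followed as a list. Of 21 measured in fibroblasts, 1 rose and 6 fell, beside 4.42% and 6.22% of all genes. Most of those named are proteases or their inhibitors. Adam12, a metalloprotease that cuts binding proteins, fell from 91.4 and 76.2 CPM to 28.3 and 26.8 CPM (-1.56 ± 0.12, adjusted p = 0.000781). Pappa, which encodes pappalysin 1, fell from 160 and 115 CPM to 65.2 and 64.0 CPM (-1.04 ± 0.15, adjusted p = 0.00708). Adam28, of the same family as Adam12, went from 21.2 and 8.56 CPM to 0.147 and 1.13 CPM (-4.57 ± 0.64, adjusted p = 0.0058). These 3 calls were kept in every alternative. Adam28 was higher in the epithelium of each library, and whether its UMIs in fibroblasts are epithelial background was not tested.

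Pappa2, the paralogue of Pappa, fell by 0.76 on the log2 scale (adjusted p = 0.0337), and Stc2, an inhibitor of pappalysins, by 1.22 (adjusted p = 0.0107). Htra3, a serine protease, rose from 11.7 and 14.9 CPM to 22.7 and 21 CPM (0.76 ± 0.15, adjusted p = 0.0213). With equal class weights neither Stc2 (-0.54, adjusted p = 0.221) nor Htra3 (0.29, 0.362) was called, and Htra3 was also lost without knockdown 1 (0.0637) and with classes of 50 cells in every library (0.099). The list's median log2 fold change was 0.07, of the opposite sign to most of its calls, against 0.01 over all genes. In epithelium 3 of 19 fell and none rose, beside 0.76% and 0.681% of all genes, among them Adam28 (86.6 and 41.1 against 3.83 and 5.39 CPM) and Stc2. The call of Pappa2 in fibroblasts was lost in 5 alternatives, turning to 0.075 with equal class weights, and that of Stc2 in epithelium in 9 of 17.

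Genes further along the pathway were followed in lists of their own. Of 30 receptor and signalling genes measured in fibroblasts, Foxo1, a transcription factor held out of the nucleus by AKT, was called, rising from 23.3 and 20.8 CPM to 31.3 and 29.5 CPM (0.51 ± 0.11, adjusted p = 0.0291). The list's median was -0.09, and 10.6% of all genes were called. Of 19 genes known to respond to FoxO factors, 3 rose and none fell: Cat, encoding catalase (0.71 ± 0.10, adjusted p = 0.00704), Gadd45a, a growth arrest gene (0.59 ± 0.10, adjusted p = 0.013), and Bcl6, a transcriptional repressor (0.58 ± 0.11, adjusted p = 0.0151). Their list's median was 0.31 against 0.01 over all genes, of which 4.42% rose. The call of Gadd45a was lost without knockdown 1 (adjusted p = 0.0692) and with equal class weights (0.38, adjusted p = 0.123). In epithelium 0 of the 30 and 0 of the 19 were called by edgeR's quasi-likelihood test, DESeq2 or limma voom, with 2 and 3 at an unadjusted p below 0.05. Of all genes 1.44% were called there by edgeR's test, and a count of 0 in lists this short lies near that share.

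Other imprinted growth genes were followed as a list. Of 15 measured in fibroblasts 3 fell and none rose, with a median of -0.32, beside 6.22% of all genes falling and a median of 0.01. Meg3, a long noncoding RNA, fell from 203 and 150 CPM to 65.1 and 64.0 CPM (-1.40 ± 0.15, adjusted p = 0.00244), and its neighbour Dlk1, an inhibitor of adipogenesis, by 1.92 on the log2 scale (adjusted p = 0.0413). Peg3, a zinc finger gene, fell by 0.52 (adjusted p = 0.0269). The call of Dlk1 was lost in 6 of 15 alternatives, and that of Meg3 with equal class weights (-0.38, adjusted p = 0.195). Of 5 genes of Igf2 mRNA-binding proteins and related factors, Igf2bp3 fell (-0.95 ± 0.18, adjusted p = 0.0157), a call lost with equal class weights (-0.47, adjusted p = 0.212) and without knockdown 2 (0.051). In epithelium none of the 11 imprinted and none of the 5 mRNA-binding genes was called by edgeR's quasi-likelihood test, beside 1.44% of all genes. In each list 2 were at an unadjusted p below 0.05 by that test, while DESeq2 called 1 imprinted gene and limma voom none.

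Genes whose level followed a member across 13 classes of the controls were sought among 11632 genes. The likeness was Pearson's r of log2(CPM + 1), which is a description over classes that share libraries and clustering. Igf1 was most like Fndc1 (r = 0.990), Hic1 (0.986) and Tmem45a (0.980). Igfbp4 was most like Fgf10 and Plpp3 (0.991 each) and Ifitm3 (0.990), and Igfbp5 like Pcsk5 (0.970), Prrx2 (0.966) and Olfml3 (0.959). For Igfbp3 the closest were Pcdh17 (0.976), Tril (0.965) and Col12a1 (0.957), and for Igfbp6 Pla1a (0.976), Tnfaip2 (0.975) and Ifi204 (0.969). The closest genes to Igf1r were Rela (0.911), Ier5 (0.908) and Litaf (0.905), and to Igfbp7 Gsn (0.925), Gm5617 (0.924) and Sfxn3 (0.916). Igf2 and Igfbp2 did not reach 10 CPM in any class and were not matched.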

How the data were processed

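Single-cell RNA counts were taken from 10x multiome libraries of 4 mouse alveolosphere cultures, 2 control and 2 knockdown. The deposited counts are raw UMI counts per gene and cell, and the aligner, counter and use of intronic reads are not stated; the build is GRCm38 (mm10), per the submitters' processing notes. Cell classes, clusters, the percent of mitochondrial UMIs per cell and a doublet enrichment ratio per cell are as deposited in the authors' cell table, where 52 other columns were not used. The deposited cells have at least 402 genes and 533 UMIs and at most 35.0% mitochondrial UMIs, so the authors' filters lie at or below these values; no cell was removed here and no further doublets were called.

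The 9 members, the gene lists and the tests were chosen with earlier results of these data known. All members were named in every comparison, and of each list the called genes, at most 12 per compartment by size of change, to which Foxo1, Bcl6 and Peg3 were added after their values were seen; 1 listed gene counted in the totals is not reported here. Counts were summed per library over 11 mesenchymal classes (fibroblasts here; 143 mesothelial cells in neither sum) and over the epithelial classes. AT2 clusters 19 and 23 were left out of the epithelium because fibroblast markers reached 62.5% and 55.6% of the fibroblast level in them; the design asked that AT2 markers pass 50% too, which they did not (2.21% and 40.3%), so this departs from it after the values were seen. In those clusters the median depth was 9364 and 10070 UMIs per cell, and the deposited doublet enrichment ratio 2.29 and 2.38. Sums were tested with edgeR 4.0.16's quasi-likelihood test in R 4.3.3 (TMM factors of 0.958 to 1.03, filterByExpr, Benjamini-Hochberg over all genes, threshold 0.05); DESeq2 1.42.0 and limma 3.58.1 were alternatives. Levels are CPM without TMM factors. Class tests needed 50 cells in every library. Alternatives covered scaling, filters, test, block, class weights, mitochondrial share, thinning, gene length and libraries or clusters left out. Equal class weights averaged only the classes with at least 50 cells in every library, so they also leave classes out. They were tested by limma on log2(CPM + 1), so the test and scale change too. The scripts were tested on simulated data.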

Additional observations from a re-analysis of the deposited data

Results flagged for a closer look

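The response to the knockdown differed between the 8 mesenchymal classes, by edgeR's quasi-likelihood F test with the library as a block, for 6 members. On the log2 scale the class effects spanned 2.09 for Igfbp5, 1.53 for Igfbp3, 1.17 for Igf1, 0.97 for Igfbp6 and 0.96 for Igfbp4. The span of 11.25 for Igfbp2 comes from classes with no UMI in a group. Igfbp5 had its highest effect in Myo1f+ fibroblasts (1.24) and its lowest in the Unknown Mesenchymal class (-0.94), where both knockdown libraries lay below both controls. The response of Igfbp3 also differed between fibroblasts and epithelium, by 1.19. No cause of these differences was tested, and all but that of Igfbp5 lost their call without the library block. The calls of Igfbp2 and Igfbp6 across classes, and of Igfbp3 between fibroblasts and epithelium, were lost as well when single libraries were left out.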

How the results depend on the processing

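Of 17481 genes 1860 were called in fibroblasts, 5820 with a replicate block, 828 with equal class weights and 998 to 3666 with a library left out (998 without knockdown 2, 1176 without knockdown 1, 3666 without control 2). In epithelium 201 were called, 344 scaled by library totals, 528 with no filter, 329 with the replicate block, 85 thinned to 2000 UMIs, 780 with the mixed clusters, 129 without cluster 32 and 136 to 684 with a library left out. For the difference between compartments 610 were called, 1303 with no filter, 288 by DESeq2, 363 thinned, 401 with the length trend removed, 1010 with the mixed clusters, 95 with no replicate block and 249 to 975 with a library left out. Across classes 1185 were called, 86 with no replicate block and 424 to 1338 with a library left out. Of the member tests by class 22 were called, 39 with the replicate block and 14 to 25 with a library left out. Pappa2 in fibroblasts turned to 0.075 with equal class weights, and the Igfbp5 difference between compartments to 0.79 with the mixed clusters; the cause was not tested. The block also called Igfbp2 (adjusted p = 0.000893) and Wwtr1 (0.0108) in fibroblasts and Igfbp7 in epithelium (0.00903), and lost Stc2 in epithelium (0.0553). Replicate numbers come with no stated pairing: deviations of same-numbered libraries correlated at r = 0.363 in fibroblasts and 0.183 in epithelium. Of the values of single genes under the alternatives, 1143 kept their side of the threshold or, for shares of cells, moved by less than the larger group SD. These include values called under neither setting whose sign changed. A further 95 lost and 60 gained a call, 11 shares of cells moved by more, and 2 values reversed. With 2 libraries per group, Igf2 and Igfbp2 are limited by depth.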
